A study of Rattus norvegicus with 27 samples.

Results

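The measurement described here is the change, after brain ischemia and reperfusion, in how much of each transcript of hippocampal area CA3 was found with polysomes relative to total RNA. It is a difference of differences. For each probe set, the 8R minus NIC difference in total RNA was subtracted from the 8R minus NIC difference in polysome RNA, and the result is called the ratio change. NIC stands for sham-operated, non-ischemic male Long Evans rats. 8R stands for male Long Evans rats with 10 min of normothermic ischemia and 8 h of reperfusion. The CA3 tissue of 5 rats was pooled for each replicate, and there were 3 NIC pools and 4 8R pools. From every pool a post-mitochondrial supernatant, which is meant to be free of mitochondria, was divided. A share of 20% gave total RNA, and the rest was spun onto a 20% sucrose pad to give the polysome pellet, so each pool has 1 total and 1 polysome array, 14 arrays in all. All 18511 probe sets with exactly 1 gene symbol were followed, out of 36685 on the array. They stand for 18166 genes, of which 291 have more than 1 probe set.

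Polysomes are messenger RNAs loaded with several ribosomes, and the share of a transcript in the polysome pellet is a common measure of how actively it is translated. A sucrose pad also pellets other heavy particles, so the pellet holds ribosome-bound RNA together with any RNA in complexes of like density. CA3 is the hippocampal field whose pyramidal neurons receive the mossy fibers of the dentate gyrus. It is known for surviving a brief global ischemia that kills the pyramidal neurons of the neighboring field CA1. Early in reperfusion, phosphorylation of the initiation factor eIF2 slows protein synthesis throughout the brain, and the tissue transcribes heat shock and other stress genes.

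Values are array intensities on a linear scale, taken to log2(intensity + 16) for every difference, so a change of low values is understated. Median intensity of an array lay between 25.6 and 33.7, and arrays of the same group correlated at 0.965 to 0.991. The tissue label was checked against markers in the NIC total RNA of both regions. Plagl1, a CA3 marker, lay at 186 to 210 in CA3 and 24.6 to 44.2 in CA1. Wfs1, a CA1 marker, lay at 176 to 188 in CA3 and 530 to 679 in CA1. Of the marker lists, 11 of 16 CA3 markers and 2 of 12 CA1 markers were higher in CA3. The pool numbered 4 of the 8R group stood apart: the deviations of its polysome and total arrays from their group means correlated at 0.73, against 0.23 to 0.34 for the other 8R pools and -0.052 to 0.0071 for the NIC pools. Counts that moved by over 1.5 times without it are given beside the result.

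The polysome to total ratio changed for many transcripts in CA3, and more of them fell than rose. Of 18511 probe sets, 2868 (15.5%) passed an adjusted p of 0.05 in limma with the pool as a block. The ratio was higher in 8R for 962 (5.2%) and lower for 1906 (10.3%). At an unadjusted p under 0.05 the counts were 2368 higher and 3546 lower. The changes were small: 16 of the called probe sets rose at least 2-fold and 7 fell at least 2-fold, the median over all probe sets was -0.015 log2 units, and the median standard error of a probe set was 0.14. In what follows, rose and fell are used of a ratio that passed this test. The 4 8R pools all lay above the 3 NIC pools for 2017 probe sets (10.9%) and all below them for 3014 (16.3%), 27.2% together, and 2634 of the called probe sets were among these.

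The count of calls depended on how the arrays were compared. Without the pool as a block, where a probe set must stand out from the spread between pools of a group, 30 probe sets (0.162%) were called, 12 higher and 18 lower, all of them also called with the block and in the same direction. Without the block and without 8R pool 4, 1559 were called, 480 higher and 1079 lower. With the block, leaving out 1 pool gave 1343 calls without NIC pool 2, 1783 without NIC pool 3, 1859 without 8R pool 1 and 1461 without 8R pool 3, against 2119 without 8R pool 4. Scaling moved the balance of directions. After quantile normalization 1500 were called, 762 higher and 738 lower, so that 50.8% of the calls were higher against 33.5% of the main calls. With each array centred on its median, 3293 were called and 22.2% of them were higher. No probe set called in the main comparison changed direction under any of these settings. A fit over all 36685 probe sets, named or not, called 947 of the named ones, 229 higher and 718 lower.

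**Figure D1:**
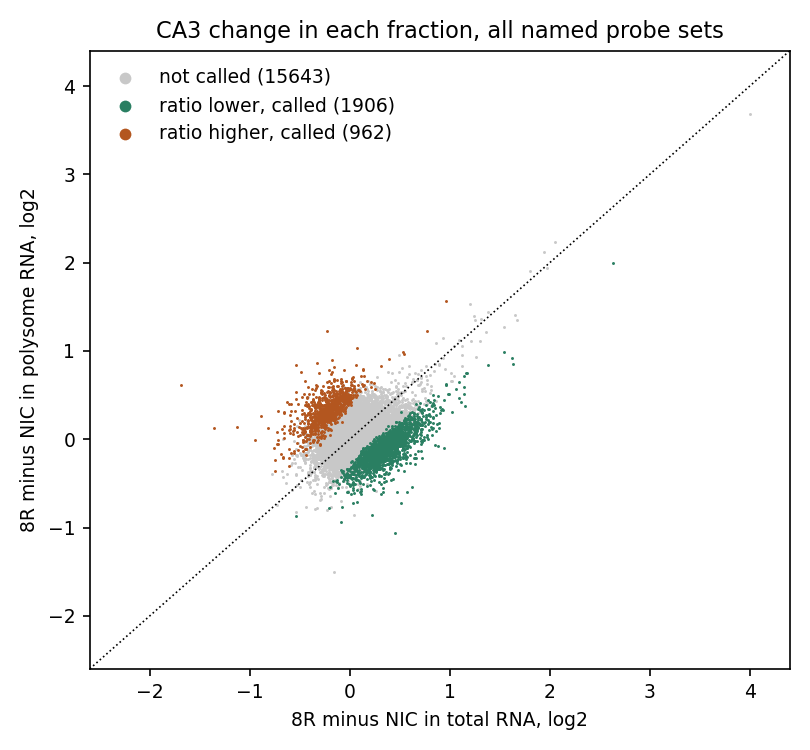
Change from NIC to 8R in CA3 total RNA (horizontal, log2) against the change in polysome RNA (vertical, log2) for 18511 probe sets, each 1 point, with the dotted line marking equal change. The 1906 probe sets whose ratio was called lower lie below the line, mostly at a higher total RNA level, and the 962 called higher lie above it.

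Among the 1906 probe sets with a lower ratio, the level in total RNA was higher in 8R for 1862, and the level in polysome RNA was lower for 1421. Their median change was 0.34 in total RNA and -0.11 in polysome RNA. The 962 with a higher ratio showed the mirror image, with a median of -0.22 in total RNA and 0.33 in polysome RNA. These are the components of the ratio change that chose them, so they describe the calls and do not support them. In the NIC pools the transcripts called lower had a higher intensity in polysome than in total RNA (median polysome minus total 0.47), and in the 8R pools they stood at -0.0017. Those called higher had a lower polysome than total intensity in NIC (-0.49) and stood at 0.066 in 8R. The ratio change that chose the calls is the difference between these NIC and 8R values, so they too only describe the calls. The scaling of total against polysome arrays is not given, so only changes of the difference can be read, not its sign.

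Within each pool, transcripts differed less in their polysome to total ratio after ischemia. The interquartile range of the polysome minus total difference over all 18511 probe sets was 0.464, 0.520 and 0.523 in the 3 NIC pools. In the 4 8R pools it was 0.323, 0.393, 0.314 and 0.331. Every 8R pool was thus narrower than every NIC pool, with means of 0.502 ± 0.034 (SD, n = 3) and 0.340 ± 0.036 (SD, n = 4). The exact two-sided permutation test over pools gave p = 0.0286, the smallest that its 35 splits allow, and this measure was chosen after the data were seen. The pools' medians, in contrast, were -0.033 ± 0.025 (SD, n = 3) and -0.013 ± 0.013 (SD, n = 4), which overlapped (exact permutation p = 0.229). In CA1 the interquartile range was 0.480 ± 0.029 (SD, n = 3) in NIC and 0.361 ± 0.0092 (SD, n = 3) in 8R, where the 20 splits allow no p below the 0.1 that was found in the exact test.

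**Figure D2:**
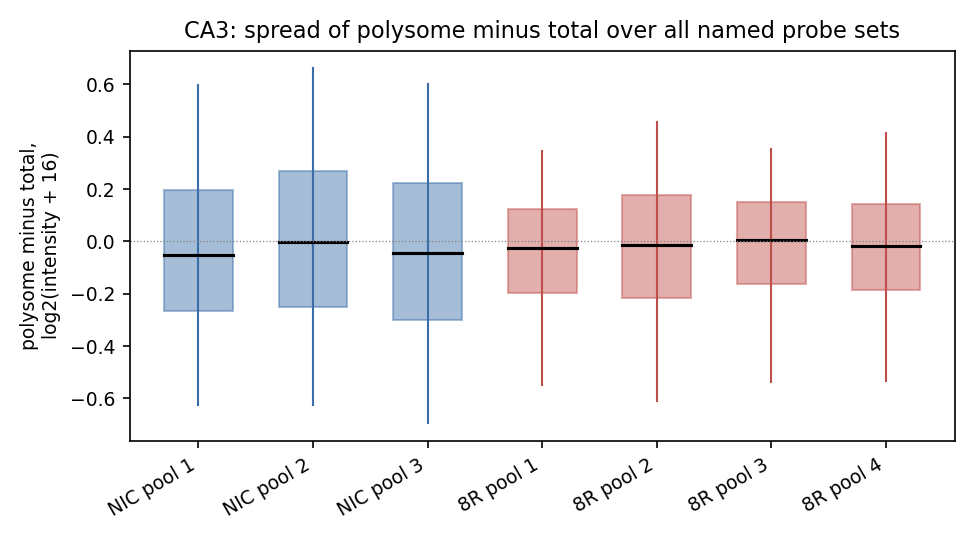
Polysome minus total difference (log2) over 18511 probe sets in each CA3 pool: black lines are medians, boxes the middle 50% and thin lines the 5th to 95th percentile, with NIC in blue and 8R in red. The box of every 8R pool (0.314 to 0.393 high) is shorter than that of every NIC pool (0.464 to 0.523).

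The same narrowing appeared when transcripts were ordered by arrays that take no part in the CA3 comparison. Probe sets were divided into 5 equal bins by the polysome minus total difference in NIC CA1. From the lowest to the highest bin, the median CA3 ratio change was 0.15, 0.11, 0.041, -0.085 and -0.28. Calls followed the same order. The lowest bin held 504 higher and 97 lower calls, whereas the highest bin held 3 higher and 1310 lower calls, 35.4% of its probe sets. Among probe sets whose mean log2 value was above the median of all (5.94), the highest bin again had a median of -0.29, with 1253 of 3286 lower and 1 higher. Pool by pool, the highest bin lay at 0.40 to 0.48 in NIC and 0.084 to 0.28 in 8R, and the lowest bin at -0.38 to -0.31 in NIC and -0.20 to -0.083 in 8R, with no overlap in either bin. The bins differ in level too: the median log2 level was 5.79 in the lowest and 7.17 in the highest. By level alone, the share called lower went from 2.46% in the dimmest 5th of probe sets to 30.7% in the brightest, and the part of signal level in the pattern was not tested further. By genomic span of protein-coding genes the medians moved less, from 0.055 in the shortest bin to -0.086 in the longest.

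**Figure D3:**
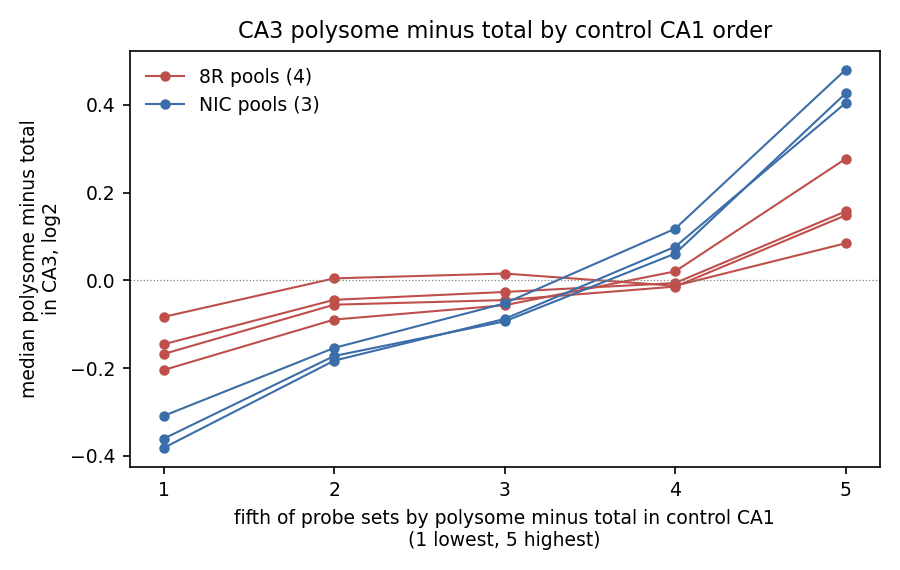
Median polysome minus total difference in CA3 (log2) for each of 5 equal bins of probe sets, ordered by the same difference in control CA1; each line is 1 CA3 pool, NIC in blue and 8R in red. The NIC lines run from about -0.38 to 0.48, and the 8R lines are flatter and do not overlap them in the lowest and highest bins.

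Scg5 had the largest fall, after Mrgprx2, among probe sets with a mean log2 value above 7 (an intensity of about 112). It encodes 7B2, a chaperone of the prohormone convertase that processes neuropeptides. Its total RNA intensity was 183, 194 and 216 in NIC and 443, 365, 392 and 385 in 8R. Its polysome intensity was 317, 305 and 345 in NIC and 305, 317, 341 and 243 in 8R. Total RNA roughly doubled with no overlap, while the polysome values of the groups overlapped. The ratio change was -1.05 ± 0.11 (SE), which left 0.484 of the control ratio (adjusted p = 0.00017, and 0.0141 without the pool block). Pdia6, a disulfide isomerase of the endoplasmic reticulum, fell by 0.93 (adjusted p = 0.00148, and 0.0265 without the block). Its total intensity was 49.4, 50.0 and 55.2 in NIC and 107, 82.1, 103 and 90.2 in 8R, and its polysome intensity 80.2, 84.9 and 108 in NIC and 69.9, 90.8, 71.5 and 72.6 in 8R. Again the total values separated and the polysome values overlapped. Lrpap1, a chaperone that escorts receptors of the LDL receptor family through the same compartment, fell by 0.96 (adjusted p = 0.00083), and Lrrc59, a membrane protein of the endoplasmic reticulum that binds ribosomes, fell by 0.75 (adjusted p = 0.00083). Without the block both had an adjusted p of 0.0531. Chgb, encoding the secretory granule protein chromogranin B and named after its values were seen because it is among the 18 lower calls made without the block, fell by 0.72.

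Srsf2, which encodes an SR protein that binds splicing enhancers, was close to constant within each group of total RNA. It read 130, 122 and 130 in NIC and 219, 221, 217 and 218 in 8R. In polysome RNA it read 279, 265 and 298 in NIC and 266, 317, 238 and 205 in 8R. The NIC transcripts were thus about 2-fold enriched in polysomes and the 8R transcripts were spread around equality, a ratio change of -0.85 ± 0.12 (SE; adjusted p = 0.00083, and 0.034 without the block). Rbm3, a cold-inducible RNA-binding protein, fell by 0.78 (adjusted p = 0.00086) although its level was higher in both fractions. Its total intensity went from 107, 84.0 and 95.2 to 238, 258, 243 and 188, and its polysome intensity from 201, 175 and 198 to 216, 319, 281 and 207, with no overlap in either. Dusp6, a phosphatase that inactivates the kinase ERK, fell by 0.77 (adjusted p = 0.00083). Its total intensity was 84.2 to 91.7 in NIC and 127 to 212 in 8R, and its polysome intensity 150 to 169 and 124 to 202. Other well-measured falls were those of Cd59b, an inhibitor of complement (-0.78), Grb14, an adaptor of the insulin receptor (-0.78), Klhl7, a substrate adaptor of a ubiquitin ligase (-0.76), and Chmp3, a subunit of the membrane-cutting ESCRT-III complex (-0.81). Without the block, Cd59b (adjusted p = 0.0265) and Grb14 (0.0428) still passed, and Rbm3 (0.0891), Dusp6 (0.102), Klhl7 (0.118) and Chmp3 (0.196) did not.

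The largest rise in a well-measured transcript was that of Rpph1, the RNA component of ribonuclease P, a small RNA that is not translated. In total RNA it read 5793, 5649 and 5846 in NIC and 3814, 4246, 3728 and 4693 in 8R. In polysome RNA it read 237, 287 and 142 in NIC and 280, 389, 318 and 559 in 8R. It was far below its total level in every polysome sample, and the ratio rose by 1.25 ± 0.17 (SE), 2.38-fold (adjusted p = 0.00083, and 0.0684 without the block). The telomerase RNA Terc, likewise noncoding, rose by 0.51 (adjusted p = 0.0147, and 0.0639 without NIC pool 2), from 31.3 to 39.2 in the NIC and 41.3 to 52.7 in the 8R polysome RNA. Of 6 noncoding RNAs measured, each by its brightest probe set, these were the 2 that rose and none fell. For Gas5, a host transcript of small nucleolar RNAs, the brightest probe set gave -0.24 (adjusted p = 0.254) and a dimmer one fell by 0.62 (adjusted p = 0.0434). Mitochondrially encoded COX1 (0.37) and COX2 (0.42) rose too, from a median NIC polysome minus total difference of -2.14 over the 3 such transcripts measured. After quantile normalization, or without NIC pool 3 or 8R pool 3, 1 of these passed. The supernatant was meant to be free of mitochondria, yet it held these transcripts at high intensity. NIC total RNA read 3442 to 3585 for COX1, 2238 to 2479 for COX2 and 4022 to 4163 for COX3. These transcripts are not read by cytosolic ribosomes.

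After Rpph1, clone names aside, the largest rises with separated pools and a mean log2 value above 7 began with Rpl10, Fancd2osl1 and Rpl23al4. Ffar3, Hmgb4l5, Mifl2, Erhl1 and Pradc1 followed, and then Cnih2. Cnih2, an auxiliary subunit of AMPA-type glutamate receptors, rose by 0.71 ± 0.09 (SE; adjusted p = 0.0008, and 0.072 without the block). Its total intensity was 794, 849 and 811 in NIC and 473, 532, 510 and 616 in 8R. Its polysome intensity was 239, 252 and 275 in NIC and 223, 273, 292 and 318 in 8R. The total level separated the groups and the polysome level did not. Mt2A, a metallothionein that binds zinc, was higher in 8R in both fractions, and more so in polysomes. It read 1317, 1348 and 1409 in NIC total RNA, 2305, 2554, 2389 and 3598 in 8R total RNA, 570, 784 and 663 in NIC polysomes and 1748, 1914, 1693 and 2894 in 8R polysomes. The groups did not overlap in either fraction, and 8R pool 4 was highest in both. The ratio change was 0.60 ± 0.09 (SE; adjusted p = 0.0009, and 0.187 without the block), and a second probe set of Mt2A gave 0.32, which did not pass (adjusted p = 0.0704). Psme1, a subunit of the PA28 activator of the proteasome, rose by 0.61 (adjusted p = 0.00606), and Pradc1, a secreted protein with a protease-associated domain, rose by 0.73 (adjusted p = 0.00491). Ffar3, a receptor for short-chain fatty acids, rose by 0.81 (adjusted p = 0.0009). Psme1, Pradc1 and Ffar3 did not pass without the block. For Rpl41 1 probe set rose by 0.67 (adjusted p = 0.00886), and a brighter one gave 0.27 and did not pass (adjusted p = 0.243).

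**Figure D4:**
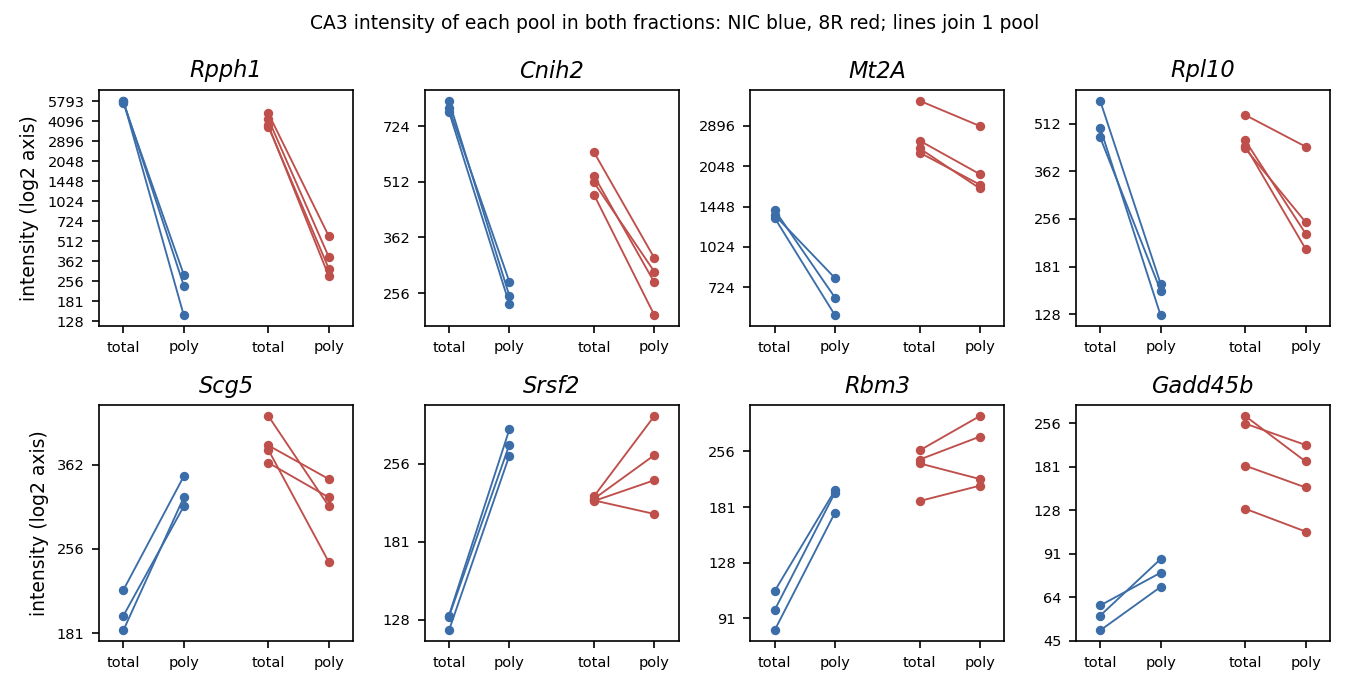
Intensity (log2 axis) in total and polysome RNA of each CA3 pool for 8 genes, NIC in blue and 8R in red, with lines joining the arrays of 1 pool; for genes with more than 1 probe set, the one with the lowest adjusted p is drawn. The lines of Scg5, Srsf2 and Gadd45b slope up in NIC and are flat, mixed or down in 8R, and those of Rpph1 and Rpl10 are less steep in 8R.

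Most of the largest changes by size belonged to probe sets of low intensity. The rule that took the 15 largest rises and 15 largest falls among called probe sets with separated pools named Mir18a, Tlx2, Or1f30, Or6c66b, Olr1585, Tmem258l5, Ostcl1, Polm, Fth1l1, Svs3a, Rpl37a-ps12, Igh-6l1, Rps6-ps8 and Pate6l beside Rpph1 among the rises, which ranged from 1.01 to 2.30. Among the falls it named Mrgprx2, Or4c103, Or1j16, Or14j3, Cyp11b3, Olr5, Lce1f, Or12e8, Duox2, Mir292, Or51af1 and Or7e169c beside Scg5, Lrpap1 and Pdia6, from -0.88 to -1.51. Of all these, Rpph1, Scg5 and Mrgprx2 had a mean log2 value above 7. Several are olfactory receptor genes, which encode odorant receptors. Of 1198 olfactory receptor probe sets on the array, with a median intensity of 8.43, 79 rose and 59 fell, 11.5% together against 15.5% of all. Polm, a DNA polymerase of end joining, rose by 1.08 and was the one among the 15 rises besides Igh-6l1 to pass without the block (adjusted p = 0.0141). Mrgprx2, the largest fall named, rested on uneven values: its NIC polysome intensity was 177, 491 and 185, and its call was lost with a robust variance prior (adjusted p = 0.114).

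The microRNA genes named here lie near the limit of measurement. The mature sequences below are those of RefSeq on build GRCr8, with the seed (bases 2 to 8, which pair with targets) in capitals.
rno-miR-18a-5p: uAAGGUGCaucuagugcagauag
rno-miR-292-5p: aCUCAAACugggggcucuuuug
rno-miR-98-5p: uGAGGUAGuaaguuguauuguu
rno-let-7a-5p: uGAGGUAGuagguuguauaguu
The miR-98 and let-7a sequences are shown because they share a seed, which 12 mature rat microRNAs of the table carry, and because Mir98 and 1 of the let-7a genes fell. Mir98 fell by 0.86 (adjusted p = 0.00688) and Mirlet7a-2 by 0.68 (adjusted p = 0.0152), whereas Mirlet7a1 gave 0.23 and did not pass (adjusted p = 0.421). Of the other let-7 genes measured none passed, and their ratio changes ran from -0.47 (Mirlet7f2, adjusted p = 0.0789) to 0.38 (Mirlet7e, adjusted p = 0.106). The rise of Mir18a, at 2.30 the largest named, came from total RNA. Total intensity was 98.4, 69.8 and 69.7 in NIC and 0.849, 0.126, 18.0 and 64.7 in 8R, and polysome intensity was 1.60, 0.241 and 0.00333 in NIC and 0.777, 2.07, 3.26 and 55.7 in 8R. The 8R pools thus spread over the whole range, and its neighbors in the same cluster, Mir17 (0.15), Mir19a (0.14), Mir20a (0.070), Mir19b1 (-0.20) and Mir92a1 (0.18), did not pass. Mir292 fell by 0.90 (adjusted p = 0.00203) at total intensities of 9.91 to 13.4 in NIC and 22.1 to 26.3 in 8R. Of all 363 microRNA probe sets, 28 rose and 19 fell, 12.9% against 15.5%. The array probes were not separated here into precursor and mature RNA.

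Gene groups are described by how many members with a probe set rose or fell, beside 5.2% and 10.3% of all probe sets, and by their median ratio change, beside -0.015 over all. That background depends on level. In the brightest 5th of all probe sets 30.7% were called lower and 2.67% higher, and in the highest bin by NIC CA1 ratio 35.4% were called lower. Each gene entered a list by its brightest probe set, and level was not matched. A share of falls near 30.7% is thus close to that of bright probe sets at large. Since this is tissue RNA, fewer cells of a type and less RNA per cell cannot be told apart. After quantile normalization many list counts were smaller. Without the block, 1 SR factor and 1 endoplasmic reticulum chaperone passed and no other list had a fall or rise in its main direction. The fit over all probe sets of the array called fewer members in most lists, such as 13 falls in the proteasome list, 12 in the respiratory chain and 10 among ribosomal proteins.

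Splicing regulators had the lowest median of the lists. Of 17 SR proteins and their kinases, 11 fell and none rose, with a median of -0.48. Besides Srsf2, these included Srsf7 (-0.86), Srsf3 (-0.77), Srsf1 (-0.62), the related regulator Tra2a (-0.59) and the SR protein kinases Clk1 and Clk4 (both -0.50). The median change was 0.52 in total RNA and 0.024 in polysome RNA. Srsf3 separated the groups in total RNA, with intensities of 67.3 to 83.3 in NIC and 129 to 178 in 8R. After quantile normalization 8 fell, without NIC pool 2 there were 6, without 8R pool 3 there were 7, and 1 (Srsf2) passed without the block. SR genes are known to make nuclear and unproductive isoforms with retained introns or poison exons, which one probe set per gene does not separate from coding mRNA. The part of such isoforms in these values was not tested.

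The machinery of translation fell as well, in several of its parts. Aminoacyl-tRNA synthetases, which charge transfer RNAs, fell for 14 of 19 genes and rose for none (median -0.37), among them Lars1 (-0.53), Hars1 (-0.52), Rars1 (-0.50) and Sars1 (-0.50). Their pool medians were 0.57 to 0.61 in NIC and 0.14 to 0.34 in 8R. Of these genes 3 fell after quantile normalization, and 8 to 9 fell without NIC pool 1, NIC pool 2, 8R pool 1 or 8R pool 3. Initiation, elongation and release factors fell for 15 of 42 and rose for none (median -0.27; 5 after quantile normalization, 8 without NIC pool 2). They included Eif3m (-0.67), Eif3i (-0.52) and Eif3c (-0.50) of the scaffold complex eIF3, Eif2b2 (-0.56) and Eif2b1 (-0.49) of the exchange factor that reloads eIF2, and Eef1d (-0.59) of the elongation factor eEF1.

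Cytosolic ribosomal proteins fell for 23 of 56 genes and rose for 3, with a median of -0.27. Unlike the groups above, they already had a lower polysome than total intensity in NIC, with pool medians of -0.54 to -0.33, and were lower still in 8R at -0.75 to -0.63. Rpl18 (-0.73), Rpl34 (-0.73), Rpl5 (-0.62), Rpl35a (-0.61) and Rpl6 (-0.60) fell most. Rpl10 (0.97), Rpl37a (0.44) and Rps29 (0.40) rose. The count of falls was 7 after quantile normalization, 12 without NIC pool 2, 13 without 8R pool 1 and 15 without 8R pool 3, and 24 without 8R pool 4. Ribosomal protein genes have many near-identical processed copies, so the copy behind a probe set's signal is uncertain. Of 141 probe sets named as such copies, 20 rose and 11 fell, 22% together against 15.5% of all. Rises outnumbered falls among them, whereas 5.2% of all probe sets rose and 10.3% fell. Their median log2 level was 5.79. In the 5th of all probe sets that holds this level (5.64 to 6.27), rises also outnumbered falls, with 272 higher and 108 lower calls.

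These messages typically begin with a 5′ terminal oligopyrimidine tract, a C at the cap followed by a run of C or T, through which the kinase mTOR controls their entry into polysomes. The windows below run from 10 bases before to 20 bases from the RefSeq start (build GRCr8, gene strand). They are shown because members with the tract moved in both directions, with the run that begins at the start site in capitals.
Rpl34, chr2:221962264-221962293, minus strand: tccttttcctCTTCCggggacggtgcttag
Rpl35a, chr11:81235002-81235031, minus strand: tcttgccttcCTCTTTCCgccatcttggcg
Rpl9, chr14:43247580-43247609, plus strand: aggacgttctCTCTTTgccccatctactgc
Rpl10, chrX:157205840-157205869, plus strand: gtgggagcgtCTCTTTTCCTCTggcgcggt
A C at the annotated start followed by 4 or more bases that are each C or T was found, on the gene strand, in 17 of the 48 ribosomal protein genes that have exactly 1 RefSeq window (35.4%) and in 2.63% of all 33469 windows. Of those 17 genes 6 fell and 2 rose, with a median of -0.21. Of the other 31, 16 fell and none rose, with a median of -0.29. An annotated start can be off by some bases, so the absence of the run says only that it is not in this window. Rpl9 read as a fall of 0.54 (adjusted p = 0.0023). Rpl10 has a second, dimmer probe set that gave -0.19 and did not pass (adjusted p = 0.414). The rising one read 464, 497 and 605 in NIC total RNA, 453, 428, 436 and 546 in 8R total RNA, 152, 127 and 160 in NIC polysomes and 230, 250, 206 and 433 in 8R polysomes. The polysome groups did not overlap and the total groups did. Rpl6 had 2 probe sets that both fell (-0.60 and -0.81), and 3 of 4 for Rpl35a fell (-0.44 to -0.61, the other -0.41 with adjusted p = 0.0508).

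Protein degradation and folding genes moved the same way. All 31 proteasome subunits measured had a ratio change below 0, 21 fell (median -0.34; 8 after quantile normalization, 13 without NIC pool 2). They came from the proteolytic core (Psma5 -0.62, Psmb4 -0.55), the ATPase ring (Psmc1 -0.61, Psmc5 -0.60) and the lid (Psmd12 -0.56). This stands beside the rise of Psme1, which belongs to a separate activator. Heat shock proteins and cytosolic chaperones fell for 11 of 20 and rose for none (median -0.29; 6 after quantile normalization, 7 without 8R pool 3). Their level was higher in 8R in both fractions, by a median of 0.71 in total RNA and 0.37 in polysome RNA. Hsph1, the HSP110 nucleotide exchange factor of HSP70, had a total change of 1.54 and a polysome change of 0.99 and a ratio change of -0.55. Dnajb4 (-0.59), Dnaja1 (-0.55) and Fkbp4 (-0.57), co-chaperones of HSP70 and HSP90, fell likewise. Mitochondrial chaperones and proteases fell for 7 of 14 (median -0.34; 4 after quantile normalization), led by Hspd1, the chaperonin HSP60 (-0.63). Endoplasmic reticulum chaperones fell for 6 of 17 (median -0.25; 4 after quantile normalization), namely Pdia6, Hsp90b1 (-0.67), Pdia3 (-0.66), Calr (-0.61), Canx (-0.49) and P4hb (-0.36).

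**Figure D5:**
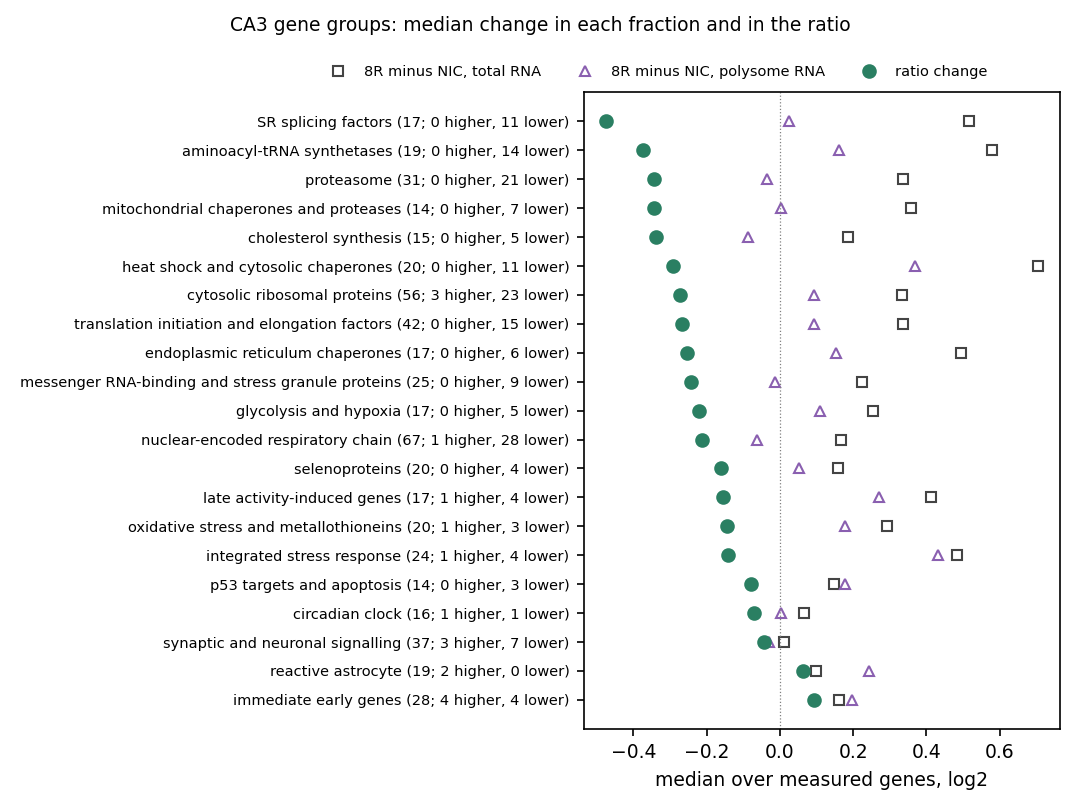
Median change (log2) over the measured genes of each list in CA3 total RNA (squares), polysome RNA (triangles) and in the ratio (filled circles), with the number measured and the number called in each direction beside the name. In the lists with the lowest ratio medians, with SR splicing factors (-0.48) at the top, total RNA lies to the right of polysome RNA.

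Genes that respond to stress and activity did not behave as 1 group. Hspb1, Hmox1, Atf3 and Gadd45b, known to rise in total RNA after ischemia, were examined. Hspb1, the small heat shock protein HSP27, read 8.08 to 11.4 in NIC total RNA and 195 to 645 in 8R, and 10.0 to 13.8 and 185 to 696 in polysome RNA. It was far above control in both fractions, and its ratio change of -0.32 did not pass (adjusted p = 0.113). Hmox1, heme oxygenase 1, was likewise above control in both fractions, with 16.2 to 20.2 and 89.5 to 151 in total RNA, 22.1 to 35.1 and 122 to 257 in polysome RNA, and its ratio change of 0.18 did not pass (adjusted p = 0.429). Atf3, a transcription factor of the integrated stress response, fell by 0.64 (adjusted p = 0.0139, 0.349 without the block and 0.0564 without NIC pool 1). Gadd45b, a growth arrest gene induced by activity, fell by 0.70 (adjusted p = 0.00168, and 0.201 without the block). In total RNA it read 49.1, 59.9 and 55.2 in NIC and 271, 182, 129 and 255 in 8R, and in polysome RNA 69.4, 77.7 and 86.7 in NIC and 188, 153, 108 and 215 in 8R. In every NIC pool the polysome intensity was above the total intensity and in every 8R pool it was below, although both fractions were above control. The scaling between fractions is not given, so this crossing does not show which fraction held more of the transcript.

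In the integrated stress response list 4 of 24 fell (Atf3, Cebpg, Ddit4, Mthfd2; 2 without NIC pool 2) and Trib3, a pseudokinase that feeds back on the response, rose (0.59, adjusted p = 0.0233). Among immediate early genes, the first to be transcribed after a stimulus, 4 of 28 fell (Dusp6, Klf6 -0.67, Jun -0.42, Nr4a2 -0.33) and 4 rose (Fosl1 0.52, Maff 0.51, Fosb 0.43, Zfp36 0.42), and 2 fell after quantile normalization. Fosl1 was dim too, at 10.2 to 17.2 in NIC and 37.1 to 44.7 in 8R polysome RNA. Late activity-induced genes had 4 of 17 that fell, namely Gadd45g (-0.78), Gadd45b, Rgs2 (-0.59) and Rgs4 (-0.51), and Vgf, a neuropeptide precursor, rose (0.48). After quantile normalization 4 of this list fell too. In the oxidative stress list, Srxn1 (-0.55), Txnrd1 (-0.43) and Sod2 (-0.28), which encode a sulfiredoxin, a thioredoxin reductase and mitochondrial superoxide dismutase, fell and Mt2A rose, out of 20. Of these falls 1 passed after quantile normalization, and 1 without NIC pool 2 or 8R pool 1. Among p53 targets, Gadd45a (-0.60), Mdm2 (-0.44) and Ccng1 (-0.38) fell out of 14, 2 after quantile normalization and 1 without NIC pool 2.

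Energy metabolism showed many small falls. Nuclear-encoded subunits of the respiratory chain fell for 28 of 67 and rose for 1, Atp5mc1 (0.43), with a median of -0.21. Ndufs5 (-0.74), Uqcrfs1 (-0.60), Cox6c (-0.59) and Ndufv1 (-0.49), from complexes I, III and IV, fell most. This list, like the ribosomal proteins, had a lower polysome than total intensity in NIC (pool medians of -0.25 to -0.07) and more so in 8R (-0.46 to -0.33). After quantile normalization 6 fell, and without NIC pool 2 there were 13. Cholesterol synthesis genes fell for 5 of 15, including Idi1 (-0.61) and Fdft1 (-0.46), and glycolysis and hypoxia genes for 5 of 17, including the glycolytic enzyme Pgk1 (-0.47). Both had 2 falls after quantile normalization, and 1 to 3 without NIC pool 1, 2 or 3 or 8R pool 1 or 3. Selenoproteins fell for 4 of 20 (1 after quantile normalization and none without NIC pool 2). Of RNA-binding and stress granule proteins 9 of 25 fell (median -0.24; 2 after quantile normalization), among them Rbm3, G3bp1 (-0.63), which nucleates stress granules, Cirbp (-0.49), a cold-inducible protein like Rbm3, and Fmr1 (-0.48).

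Synaptic and neuronal genes stayed near the median of all probe sets. Of 37, 7 fell and 3 rose, with a median of -0.044 that became 0.049 after quantile normalization, when 2 fell. The neurofilament genes Nefh (-0.45), Nefm (-0.44) and Nefl (-0.32) fell. Vamp2, the vesicle SNARE of transmitter release, rose by 0.56 (adjusted p = 0.00309, and 0.126 without the block). It read 1302, 1113 and 1152 in NIC total RNA and 730, 850, 776 and 1142 in 8R total RNA, and 745, 775 and 740 in NIC polysomes and 703, 798, 873 and 890 in 8R polysomes. The groups overlapped in each fraction, and separated in the difference between fractions. Syn1 (0.34), which tethers synaptic vesicles, and the neuronal splicing factor Rbfox3 (0.29) rose too. The falls of this list numbered 3 to 4 without any 1 of NIC pools 1, 2 or 3 or 8R pools 1 or 3.

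Markers of cell types gave few calls. CA3 pyramidal markers fell for 3 of 16 (Ociad2 -0.69, Kctd4 -0.45, Elavl2 -0.41), 1 after quantile normalization, and their summed total RNA intensity was 2080 to 2256 in NIC and 2297 to 2645 in 8R. No CA1 pyramidal marker (of 12), oligodendrocyte marker (of 15) or microglial marker (of 14) was called. Summed total RNA of the microglial list was 543 to 639 in NIC and 723 to 821 in 8R, and of the oligodendrocyte list 2658 to 3005 and 3180 to 3613. Astrocyte markers fell for 3 of 12 (Gjb6 -0.46, Aqp4 -0.37, Slc4a4 -0.32), with sums of 4939 to 4997 and 5347 to 6819. None of these passed after quantile normalization or without NIC pool 3, 1 fell without NIC pool 2, and 5 astrocyte markers fell without 8R pool 4. Among 19 genes of reactive astrocytes 2 rose, Lgals1 (0.35) and Aspg (0.45), with none passing without 8R pool 1 or 8R pool 3 and 1 without NIC pool 2, NIC pool 3 or 8R pool 4. Each group's sums of these glial lists did not overlap in total RNA, and their part in the ratio changes was not tested. Dentate and interneuron markers each had 1 rise and 1 fall, Tdo2 and Stxbp6, and Sst and Kit. Tdo2 lay below the pseudocount in polysome RNA, at 0.271 to 4.52 in NIC and 5.63 to 12.9 in 8R. Neither fall passed after quantile normalization, that of Stxbp6 was lost without NIC pool 2 or 8R pool 1, and that of Kit without any 1 pool other than 8R pool 4. Of 11 endothelial markers Flt1 rose (0.51). No endothelial marker rose after quantile normalization, in the fit over all probe sets, or without NIC pool 1, NIC pool 3, 8R pool 3 or 8R pool 4, and 2 rose without NIC pool 2 or 8R pool 2. Of choroid plexus, meningeal and blood markers Ttr (0.63) and Aqp1 (0.51) rose out of 12, with none passing without NIC pool 1 or 8R pool 3 and 1 without NIC pool 2, NIC pool 3 or 8R pool 1. Their summed total RNA was 928 to 1336 in NIC and 814 to 1110 in 8R. Among clock genes Nr1d1 rose (0.38) and Bhlhe40 fell (-0.30) out of 16, a fall lost after quantile normalization and without NIC pool 1, 2 or 3 or 8R pool 1.

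A further set was chosen on other arrays. In CA1 total RNA, 136 probe sets were at least 2-fold higher in 8R. In CA3 their ratio fell for 64 (47.1%, against 10.3% of all) and rose for 4 (2.94%, against 5.2%), with a median of -0.35. Their level was higher in CA3 as well, by a median of 0.81 in total RNA and 0.43 in polysome RNA. These transcripts also had a high polysome to total ratio in NIC CA1 (median 0.55 against 0.14 of all), which by itself went with a lower CA3 ratio change. The NIC CA1 total arrays are subtracted both in choosing the set and in that ratio, so the high ratio is not independent of the choice. The 4 that rose were Mt2A, Lox, a collagen cross-linking enzyme (0.68), Dusp2, a phosphatase of MAP kinases (0.46), and Dlg5l15 (0.45). After quantile normalization the median of the set was -0.27. CA1 and CA3 pools can come from the same rats.

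The ratio change in CA3 was last compared with that in CA1, over 26 arrays whose pools have both fractions. No probe set of 18511 (0%) passed for the difference between regions in limma with the pool as a block. The unadjusted p was under 0.05 for 1179, and the lowest adjusted p was 0.164. Scg5 changed by -1.02 in CA1 and -1.05 in CA3, Rpph1 by 1.64 and 1.25, and Srsf2 by -0.44 and -0.85. A missed threshold does not show that the regions act alike, and with 9 residual degrees of freedom small differences were not detectable.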

How the data were processed

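The authors deposited linear array intensities of Affymetrix Rat Gene 2.0 arrays, made with PLIER in Expression Console per the submitters' processing notes; the scaling of total against polysome arrays is not given in the sources used here. On each array the lowest intensity was near 1.1e-05 in total RNA and 1.7e-05 in polysome RNA. Intensities were taken to log2(intensity + 16) and fitted in R 4.3.3 with limma 3.58.1 (lmFit, then eBayes with a trend on intensity; residual degrees of freedom 5, prior 13.2), with the pool as a fixed block, fraction, and fraction by condition. The pairing comes from the study's design text, by which each supernatant was split. The p-values were adjusted by Benjamini-Hochberg over 18511 probe sets, two-sided. With the block, they measure the spread between pools of a group in the polysome minus total difference, not in level. The fit was tested on simulated data that gave every pool a shared effect of the same relative size. The pools here differed in that respect, so the simulation does not bear on the choice of the block. Gene names came from the platform annotation, and 575 probe sets with several symbols and 17599 with none were left out.

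The members and the 32 gene lists were chosen with earlier results of these data known. Named genes are the 15 largest rises and falls among called probe sets with separated pools, up to 5 members with the largest change of each list, and Hspb1, Atf3, Hmox1 and Gadd45b; clone names were not named (5 higher, 2 lower). The largest changes among probe sets with a mean log2 value above 7, other list members and Chgb were added after their values were seen. A gene with several probe sets entered a list by its brightest one. Alternatives were the block, scaling, pseudocount, a filter on low values, the variance model, and leaving out each pool.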

Additional observations from a re-analysis of the deposited data

Results flagged for a closer look

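In 204 groups of 4 8R pools, 10 named genes had 1 pool whose polysome minus total difference stood far from the others; chance flags about 1 in 20. The gap as a share of the range was 0.99 for Gadd45b, where pool 1 lay at -0.49 and the others at -0.23, and 0.954 for Elavl2 (pool 3 at -0.037, others 0.095 to 0.10). It was 0.926 for Nes (pool 2 at -0.11, others 0.22 to 0.25), 0.859 for Klf6 (pool 3 at 0.16, others -0.32 to -0.26) and 0.858 for Man1a1 (pool 1 at -0.28). Pool 4 was the distant one for Rpl18 (0.857; 0.14 against -0.58 to -0.48), Rpl37a-ps12 (0.85), Mpped1 (0.839) and Ccng1 (0.831), and pool 1 for Vwf (0.838).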

How the results depend on the processing

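Of the results tested, the count of called probe sets moved most: 2868 with the pool block became 30 with no replicate block, 36 with no replicate block over all 27 arrays, 1690 with the block as a random effect (consensus correlation 0.32), 1500 after quantile normalization, 1423 after quantile normalization within each fraction and 1343 to 3000 when 1 pool was left out. Chosen after seeing the data, the fit with no replicate block and without 8R pool 4 gave 1559, and a fit over all probe sets gave 947. The causes were not tested. It stayed within 1.5 times under pseudocounts of 1 and 64 (2795 and 2827), the filter at the 30th percentile (2907 of 12957), 1 probe set per gene (2837), median centring (3293), array weights (3399), no intensity trend (1913) and a robust prior (2972). Of 150 named probe sets called, 12 kept their call with no replicate block, 115 after quantile normalization and 119 to 147 when 1 pool was left out; none reversed. The median of probe sets doubled in CA1 (main -0.35) was -0.27 after quantile normalization, -0.25 within fractions, and -0.40 and -0.24 with pseudocounts of 1 and 64. The highest minus the lowest bin by control CA1 ratio (main -0.43) was -0.31, -0.30, -0.57 and -0.28 under the same 4 settings. The 8R minus NIC difference of pool medians (main 0.019) reversed to -0.027 with median centring, and the synaptic list's median (main -0.044) to 0.049 and 0.042 under both quantile normalizations. The difference of interquartile ranges was -0.18 to -0.15 when 1 pool was left out, where the exact test cannot go below 0.0667 or 0.1. The CA3 minus CA1 count was 0 under its 4 alternatives. Bins by protein length were not run. Signal limits what low probe sets show: with a pseudocount of 16, differences below that intensity are compressed.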

Other observations

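Among the 17599 probe sets with no symbol and the 575 with several, fitted together with the named ones, 443 were called higher and 433 lower, with a median ratio change of 0.015. The named ones in the same fit had 229 higher and 718 lower calls and a median of -0.015. The unnamed probe sets were dimmer, with a median log2 level of 5.07 against 5.94.

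Collagen genes, which fibroblasts and vessel cells express, had a median ratio change of 0.22 over 37 probe sets. Of these 3 rose and none fell, 8.11% called against 15.5% of all. Histone genes had a median of 0.17 over 31, with 2 higher and 2 lower calls, 12.9% against 15.5% of all. Zinc finger genes named Zfp were called for 35 of 248, 13 higher and 22 lower, 14.1% against 15.5% of all. Vomeronasal receptor genes were called for 12 of 162, 7.41%.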
